A study of Mus musculus with 4 samples.

Results

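Fibroblasts and related mesenchymal cells build the extracellular matrix, and the genes described here are 50 genes for its collagens, proteoglycans, elastic fibre proteins, cross-linking and processing enzymes and a few fibroblast receptors and secreted proteins. They were taken from a fixed list, by symbol, out of 23970 symbols in the expression table, and 36 of the 50 had a mean of at least 1 FPKM (the fragments assigned to a gene, scaled by its length and by the size of the library) over the 4 libraries. Those 36 were among the 11350 genes tested. The libraries came from epidermal keratinocytes of newborn mice at passage 0, 2 of control genotype and 2 Ovol2-deficient. All 4 cultures were grown in low-calcium medium on J2-3T3 cells, a mouse fibroblast line that had been growth-arrested to act as a feeder layer and that was removed before RNA extraction, and the labels name no other treatment. The allele, the strain and any Cre driver behind the deficiency are not given in the sources used here, nor is it stated that the libraries of a group came from separate animals, so p-values measure the spread between these libraries only.

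Fibrillar collagens are secreted as procollagens, trimmed by proteinases that remove their propeptides, assembled into fibrils together with small proteoglycans, and cross-linked by lysyl oxidases. In skin, dermal fibroblasts make most of this matrix, while keratinocytes make part of the basement membrane on which they sit. Ovol2 is a zinc-finger transcription factor of epithelia that is known to repress mesenchymal genes. Because the feeder line is also a mouse line, feeder RNA and keratinocyte RNA cannot be told apart in these FPKM values.

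The libraries had the profile of keratinocytes. Krt5, the basal keratin, stood at 2960 and 2762 FPKM in controls, against 2484 and 2269 in Ovol2-deficient libraries. The 36 tested matrix genes together made up 0.302% and 0.314% of the summed FPKM of tested genes in controls, against 0.378% and 0.436% in deficient libraries. Ovol2 itself stood at 2.68 and 2.13 FPKM in controls, against 1.45 and 0.941 in Ovol2-deficient libraries, lower in each deficient library than in either control (log2 fold change -0.64, SE 0.18, adjusted p = 0.129 in limma). No source used here says which part of the gene is altered, so its level checks the labels only in part. The label of a fibroblast set was met in part. Col1a1, Col1a2, Bgn and Fbln2 were well above 1 FPKM, whereas several genes that mark dermal fibroblasts in tissue, such as Dcn, Lum, Postn, Islr and Sfrp2, stayed below 1 FPKM on average.

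Most of the 36 tested matrix genes stood higher in the Ovol2-deficient libraries. The log2 fold change lay from 0.4 to 0.7 for 22 of them (61.1%, against 5.01% of all genes tested). The cross-linking enzyme gene Loxl1, the procollagen-processing gene Pcolce, the secreted serpin gene Serpinf1 and the fibulin gene Fbln2 rose. No tested gene of the set was called lower, though Fbln1 and Col18a1 stood below both controls in both deficient libraries. Of the set, 4 genes were called higher and 0 lower in limma at an adjusted p under 0.05, while 32 did not pass. Over all genes tested, 1.35% were called, 0.837% higher and 0.511% lower. At an unadjusted p under 0.05, 24 were higher and 2 lower, against 9.49% and 7.94% of all genes tested. Both deficient values lay above both controls for 27 of the 36 and below them for 2, namely Fbln1 and Col18a1, with overlap in 7. Over all genes tested the shares were 24.1% and 24.0%. Ogn and Pdgfra averaged under 1 FPKM in the controls and entered the test only through their deficient values. Both are in the counts of 22, 24 and 27, so those 2 genes add no support to them. The median log2 fold change was 0.48, a fold of 1.40, with quartiles of 0.27 and 0.55, against a median of -0.0014 and quartiles of -0.12 and 0.13 over all genes tested. None of the 4 called genes passed without Ovol2-deficient library 1 or without library 2 (0 of the 36 called in each case, where the remaining deficient library was assumed to vary like the controls). There were 7 genes called higher without control 1 and 3 without control 2, and Loxl1 passed in both of these. None of the 36 passed under quantile normalization, without the filter on low values or without limma's variance trend, and Serpinf1 alone passed under median-ratio scaling.

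**Figure D1:**
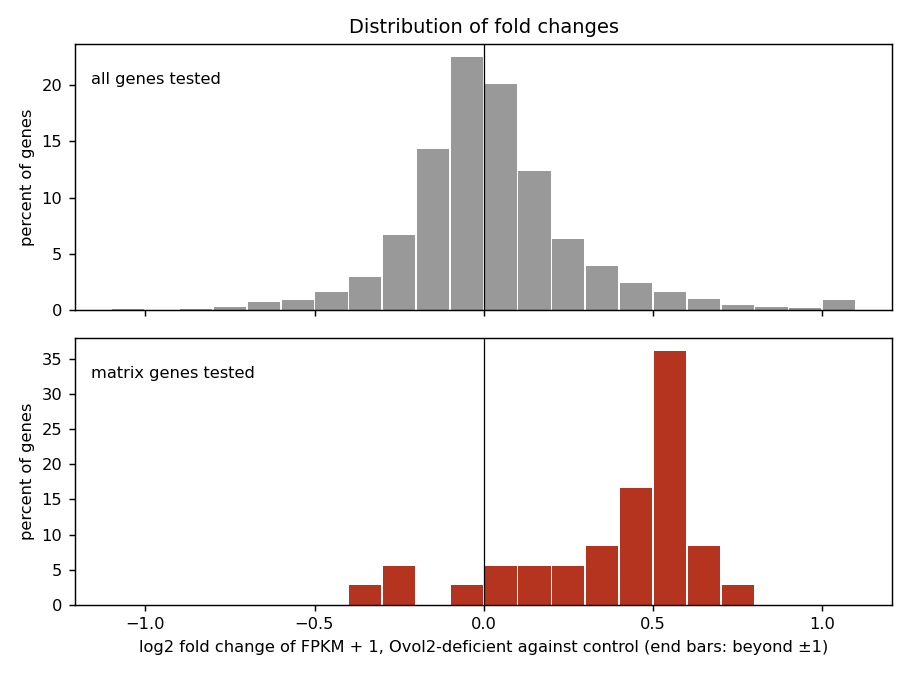
Percent of genes (vertical axis) in steps of 0.1 of log2 fold change (horizontal axis, Ovol2-deficient against control on the log2(FPKM + 1) scale), above for the 11350 genes tested and below for the 36 tested matrix genes. All genes centre at -0.0014, and 13 of the 36 matrix genes lie between 0.5 and 0.6.

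The shift showed little relation to the level of the gene. Across the 36 genes, which are not independent replicates and share the same libraries, log2 fold change and log2 mean FPKM had a Pearson correlation of 0.039 and a Spearman correlation of 0.020. Mean levels ranged from 1.3 FPKM for Pdgfra to 155.8 for Fbln2. With log2(FPKM + 0.1) the log2 fold change of Pdgfra was 0.70 in place of 0.42, while that of Fbln2 stayed at 0.55. The correlations were not taken on that scale, so they do not show whether the shift depends on level apart from the scale. Because RNA came from whole cultures, more cells of a matrix-making type and more matrix RNA per cell cannot be told apart.

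The 4 genes that rose lie on different chromosomes. Coordinates are those of GENCODE M21 on mm10. Loxl1 is at chromosome 9, 58287738 to 58313186, minus strand, Pcolce at chromosome 5, 137605103 to 137613784, minus strand, Serpinf1 at chromosome 11, 75409769 to 75422701, minus strand and Fbln2 at chromosome 6, 91212455 to 91272540, plus strand. Of these, Pcolce shares exonic bases with Fbxo24 on the same strand and with Gm36266 on the other, and no strand is stated for the counting, so its reads may include theirs. Among the 50 genes, 5 share exonic bases with another gene on the same strand and 14 on the other strand. The 36 tested genes sit on 17 chromosomes. Among neighbours, Col4a1 and Col4a2 are adjacent on chromosome 8 in opposite directions and overlap by 22 bases, Col3a1 and Col5a2 are 24614 bases apart on chromosome 1, and Col6a1 and Col6a2 are 85161 bases apart on chromosome 10.

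The sequences before the RefSeq starts of 5 of the 36 tested genes are shown because these genes differ in how they stood between the groups. Each is the 250 bases before the RefSeq start on GRCm38.p6, the same build as mm10. Col3a1 (chr1:45311288-45311537, plus strand), Col5a1 (chr2:27886175-27886424, plus strand) and Bgn (chrX:73483351-73483600, plus strand) stood higher in both deficient libraries, with log2 fold changes of 0.44, 0.56 and 0.54. Serpinh1 (chr7:99353240-99353489, minus strand) did not separate, with 0.011, and Fbln1 (chr15:85205699-85205948, plus strand) stood lower, with -0.39. For Fbln1 the first of 2 listed starts is shown. RefSeq and GENCODE M21 do not always place a start alike, and of the 27 tested genes with a listed window 15 had windows that held bases of a GENCODE exon, 12 of them of the gene's own. The 5 shown held none, while the windows of Fbln2, Pcolce and Serpinf1 did and are not shown. Capitals mark matches, on either strand, to TATAAA (the TATA box), CCGTTA (a site of the Ovo family), CACCTG (an E-box of the kind bound by Zeb and Snail factors), GGGCGG (the GC box) and CCAAT.
Col3a1: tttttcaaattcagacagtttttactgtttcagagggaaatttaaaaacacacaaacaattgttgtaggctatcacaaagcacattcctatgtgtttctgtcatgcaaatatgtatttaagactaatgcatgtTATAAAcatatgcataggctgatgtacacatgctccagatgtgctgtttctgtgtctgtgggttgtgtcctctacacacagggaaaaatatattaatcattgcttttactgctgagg
Col5a1: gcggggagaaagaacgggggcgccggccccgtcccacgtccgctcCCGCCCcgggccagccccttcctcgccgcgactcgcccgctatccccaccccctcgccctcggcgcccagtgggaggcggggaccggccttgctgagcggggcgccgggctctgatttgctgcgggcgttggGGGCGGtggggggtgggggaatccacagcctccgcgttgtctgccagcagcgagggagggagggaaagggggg
Bgn: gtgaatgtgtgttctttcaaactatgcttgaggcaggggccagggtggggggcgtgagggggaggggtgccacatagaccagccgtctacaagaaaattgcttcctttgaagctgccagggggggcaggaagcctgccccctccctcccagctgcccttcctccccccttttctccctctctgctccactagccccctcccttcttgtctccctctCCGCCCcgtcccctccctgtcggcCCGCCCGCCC
Serpinh1: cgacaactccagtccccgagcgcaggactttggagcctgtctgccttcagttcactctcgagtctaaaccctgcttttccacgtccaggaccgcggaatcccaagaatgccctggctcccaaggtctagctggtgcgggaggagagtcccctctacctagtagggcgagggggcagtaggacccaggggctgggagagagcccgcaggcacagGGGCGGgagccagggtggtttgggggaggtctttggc
Fbln1: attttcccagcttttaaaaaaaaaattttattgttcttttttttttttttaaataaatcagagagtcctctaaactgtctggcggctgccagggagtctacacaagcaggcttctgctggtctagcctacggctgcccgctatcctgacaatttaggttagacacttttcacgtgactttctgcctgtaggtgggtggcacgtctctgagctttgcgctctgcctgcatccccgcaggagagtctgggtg

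The Col3a1 window held 1 TATAAA match, the Col5a1 window 2 GC boxes, the Bgn window 3 GC boxes of which 2 overlap at its end, the Serpinh1 window 1 GC box, and the Fbln1 window none of the 5 motifs. Of all 27 windows, CCGTTA was found in 0, against 2.17% of all 27025 windows of that length, and CACCTG in 3, against 17.1%. GGGCGG was in 16 (59.3%, against 32.9% of all windows), CCAAT in 10 (37.0% against 34.5%) and TATAAA in 3 (11.1% against 13.0%). These are descriptions of the letters in the windows only.

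Fibrillar collagen chains, the main tensile fibres of the dermis, all stood higher in the deficient libraries. Of 7 listed, 6 were tested, 0 passed in limma and 5 had an unadjusted p under 0.05, with a median log2 fold change of 0.47. Col1a1, the alpha 1 chain of type I collagen, stood at 34.5 and 38.7 FPKM in controls, against 52.0 and 52.5 in Ovol2-deficient libraries (log2 fold change 0.50, SE 0.095, adjusted p = 0.0572). Both deficient values were well above both controls and nearly equal to each other. Its partner chain Col1a2 stood at 53.4 and 54.5 FPKM in controls, against 64.8 and 75.0 in Ovol2-deficient libraries (log2 fold change 0.36, SE 0.10, adjusted p = 0.129). The controls were close together and the deficient libraries lay above them and further apart. Col3a1, the chain of type III collagen, stood at 25.5 and 17.6 FPKM in controls, against 26.5 and 31.9 in Ovol2-deficient libraries (log2 fold change 0.44, SE 0.17, adjusted p = 0.261). Here control 1 came close to the lower deficient library, and the log2 fold change was 0.18 without control 2. The type V chains, which help set the diameter of type I fibrils, stood apart between the groups. Col5a1 was at 8.76 and 9.1 FPKM in controls, against 12.5 and 14.9 in Ovol2-deficient libraries (log2 fold change 0.56, SE 0.12, adjusted p = 0.0668). Col5a2 was at 9.59 and 10.0 FPKM in controls, against 13.7 and 17.0 in Ovol2-deficient libraries (log2 fold change 0.59, SE 0.12, adjusted p = 0.0668). For both, library 2 was the higher of the deficient libraries. Col11a1, a type XI chain, was low, at 2.57 and 2.48 FPKM in controls, against 2.79 and 4.19 in Ovol2-deficient libraries (log2 fold change 0.33, SE 0.17, adjusted p = 0.389), and deficient library 1 was barely above the controls.

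**Figure D2:**
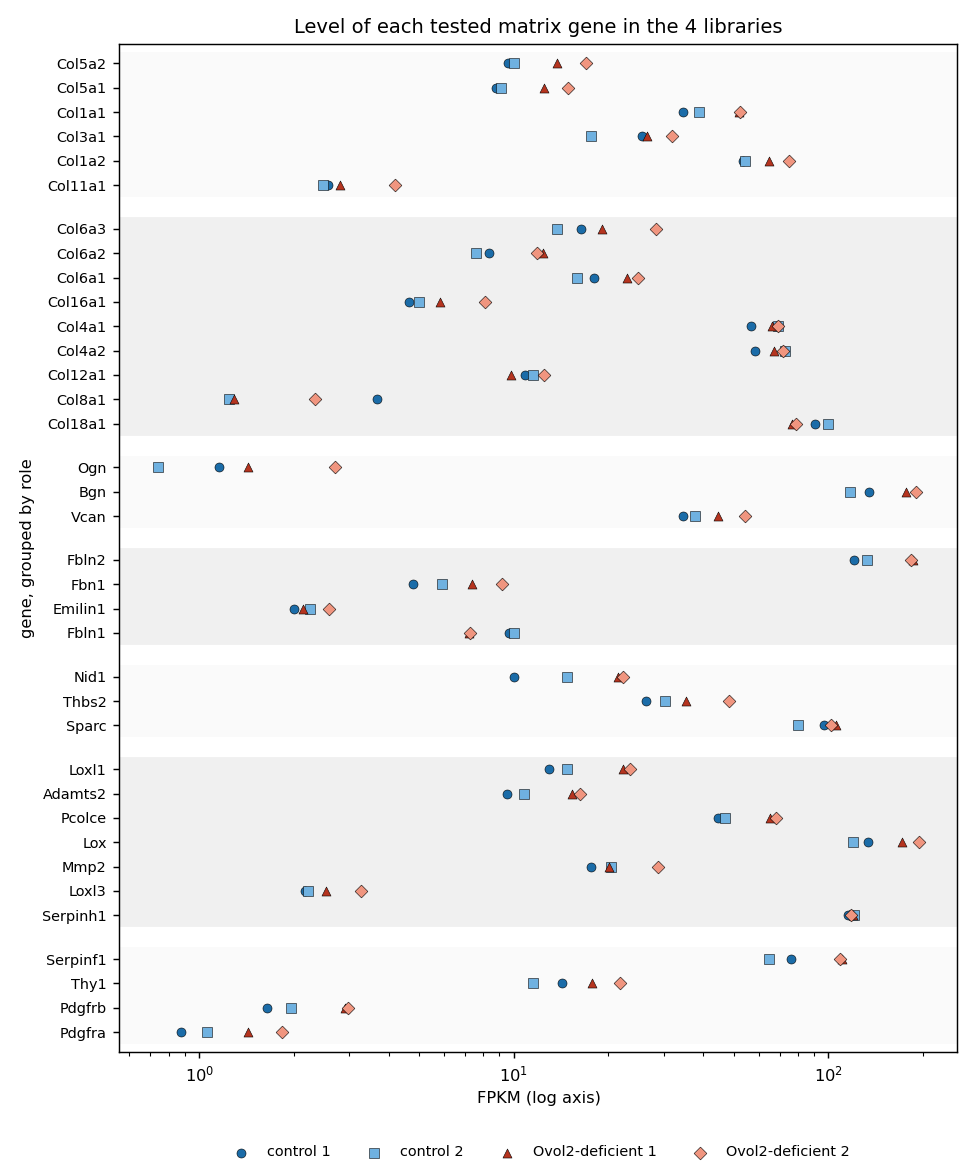
FPKM on a log axis (horizontal) for each of the 36 tested matrix genes (vertical, grouped by role), with 1 point per library for control 1, control 2, Ovol2-deficient 1 and Ovol2-deficient 2. For 27 genes both deficient points lie to the right of both control points, and for Fbln1 and Col18a1 both lie to the left.

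The other collagens split. The chains of type VI, which forms beaded filaments around cells, stood higher in the deficient libraries, while those of type IV, the network of basement membranes, did not separate. Of 9 tested, 0 passed in limma, 4 were higher and 1 lower at an unadjusted p under 0.05, and the median log2 fold change was 0.11. Col6a1 stood at 17.9 and 15.9 FPKM in controls, against 22.9 and 24.8 in Ovol2-deficient libraries (log2 fold change 0.47, SE 0.10, adjusted p = 0.0769). Col6a2 stood at 8.36 and 7.6 FPKM in controls, against 12.3 and 11.8 in Ovol2-deficient libraries (log2 fold change 0.54, SE 0.10, adjusted p = 0.0581). Both chains had all deficient values above all control values. Col6a3 stood at 16.4 and 13.8 FPKM in controls, against 19.1 and 28.3 in Ovol2-deficient libraries (log2 fold change 0.60, SE 0.18, adjusted p = 0.153), and its deficient libraries were far apart. Col16a1, a fibril-associated collagen, was at 4.63 and 5.0 FPKM in controls, against 5.81 and 8.07 in Ovol2-deficient libraries (log2 fold change 0.43, SE 0.16, adjusted p = 0.214). Its groups did not overlap, and library 2 was again the higher of the deficient libraries.

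Col4a1 and Col4a2, which share a promoter region and pair in the type IV network, overlapped between the groups. Col4a1 was at 56.6 and 69.3 FPKM in controls, against 66.4 and 69.3 in Ovol2-deficient libraries (log2 fold change 0.11, SE 0.12, adjusted p = 0.685), with control 2 and deficient library 2 nearly equal. Col4a2 followed it, at 58.6 and 72.8 FPKM in controls, against 67.4 and 72.0 in Ovol2-deficient libraries (log2 fold change 0.092, SE 0.12, adjusted p = 0.770). The 95% intervals of their log2 fold changes, -0.16 to 0.38 and -0.19 to 0.37, lay below 0.48, the median of the 36 genes. Col12a1, another fibril-associated collagen, was at 10.8 and 11.5 FPKM in controls, against 9.81 and 12.5 in Ovol2-deficient libraries, with control values between the deficient ones (log2 fold change -0.011, 95% interval -0.32 to 0.29). Col8a1, a short-chain collagen, had its highest value in control 1, at 3.68 and 1.24 FPKM in controls, against 1.29 and 2.34 in Ovol2-deficient libraries (log2 fold change -0.23, SE 0.34, adjusted p = 0.800), and its sign turned when control 1 or Ovol2-deficient library 1 was left out (0.30 and 0.042). Col18a1, a basement membrane collagen and the source of endostatin, pointed the other way from the fibrillar chains. It was the most abundant collagen of the list, at 90.6 and 100.1 FPKM in controls, against 76.6 and 78.7 in Ovol2-deficient libraries (log2 fold change -0.29, SE 0.093, adjusted p = 0.170), and both deficient values were below both controls.

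Chains that assemble into the same molecule kept nearly constant ratios for types IV and V, and less constant ones for types I and VI. Per library, the FPKM ratio of Col4a1 to Col4a2 was 0.966 and 0.952 in controls, against 0.984 and 0.963 in deficient libraries. That of Col5a1 to Col5a2 was 0.913 and 0.910 against 0.908 and 0.878. Neither ratio varied by as much as the levels of its chains. The ratio of Col1a1 to Col1a2 was 0.646 and 0.710 in controls, against 0.803 and 0.699 in deficient libraries, so the groups overlapped. For type VI, Col6a1 to Col6a2 ran from 1.85 to 2.15 and Col6a3 to Col6a2 from 1.54 to 2.39, with the lowest and the highest Col6a3 ratios in the 2 deficient libraries.

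Among small leucine-rich proteoglycans, which bind collagen fibrils, Bgn was by far the most abundant. Biglycan (Bgn) stood at 135 and 117 FPKM in controls, against 176 and 189.5 in Ovol2-deficient libraries (log2 fold change 0.54, SE 0.11, adjusted p = 0.0607). All deficient values were above all controls, though the gene did not pass. Vcan, the large proteoglycan versican, stood at 34.6 and 37.8 FPKM in controls, against 44.7 and 54.5 in Ovol2-deficient libraries (log2 fold change 0.44, SE 0.12, adjusted p = 0.118), again with no overlap. Ogn, or osteoglycin, was low, at 1.16 and 0.737 FPKM in controls, against 1.43 and 2.69 in Ovol2-deficient libraries (log2 fold change 0.63, SE 0.23, adjusted p = 0.224), and its controls averaged under 1 FPKM, so it entered the test through its deficient values. Decorin (Dcn), the close relative of Bgn, was just below the minimum, at 0.922 and 0.895 FPKM in controls, against 0.895 and 1.0 in Ovol2-deficient libraries, with no separation. Lum was at or near 0 in every library, with at most 0.078 FPKM. For this group 3 of 5 were tested, Ogn among them only through its deficient values, and 0 passed in limma. All 3 had an unadjusted p under 0.05, and the median log2 fold change was 0.54.

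Of the elastic fibre and microfibril genes, the fibulins Fbln1 and Fbln2 stood on opposite sides of 0. Fbln2, which binds fibronectin and microfibrils, stood at 120.4 and 133 FPKM in controls, against 186 and 184 in Ovol2-deficient libraries. The means were 126 ± 8.6 for controls and 185 ± 2.01 for deficient libraries (SD, n = 2 per group), and the gene rose (log2 fold change 0.55, SE 0.094, adjusted p = 0.0482 in limma). Fbln1, which is found in basement membranes and elastic fibres, was at 9.66 and 10.0 FPKM in controls, against 7.23 and 7.28 in Ovol2-deficient libraries. Its deficient libraries were nearly identical and below both controls, but the difference did not pass (log2 fold change -0.39, SE 0.10, adjusted p = 0.108, with an unadjusted p of 0.00584 in limma). Fbn1, the microfibril protein fibrillin, stood at 4.78 and 5.9 FPKM in controls, against 7.37 and 9.18 in Ovol2-deficient libraries (log2 fold change 0.55, SE 0.15, adjusted p = 0.115), with no overlap. Emilin1, an elastic fibre interface protein, was at 2.0 and 2.25 FPKM in controls, against 2.14 and 2.58 in Ovol2-deficient libraries (log2 fold change 0.10, SE 0.15, adjusted p = 0.792), and the groups overlapped. Eln, Fbln5, Mfap2, Mfap4 and Mfap5 averaged below 1 FPKM. The elastin gene Eln itself was at most 0.126 FPKM in any library. In all, 4 of 9 were tested and 1 passed.

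Of the matricellular and linker genes, Nid1 had the highest log2 fold change of the whole set on the log2(FPKM + 1) scale. With log2(FPKM + 0.1) Ogn, of another group, stood above Nid1 (1.01 against 0.84). Nid1, or nidogen, which links laminin to type IV collagen, stood at 9.99 and 14.7 FPKM in controls, against 21.4 and 22.3 in Ovol2-deficient libraries (log2 fold change 0.80, SE 0.17, adjusted p = 0.0668). Both deficient values were well above the controls, but the controls differed from each other, and the log2 fold change was 0.54 without control 1 and 1.06 without control 2. Thbs2, or thrombospondin 2, which limits the formation of blood vessels, stood at 26.3 and 30.4 FPKM in controls, against 35.2 and 48.2 in Ovol2-deficient libraries (log2 fold change 0.53, SE 0.15, adjusted p = 0.141), with library 2 the higher of the deficient pair. Sparc, a collagen-binding glycoprotein, was at 96.9 and 80.1 FPKM in controls, against 106 and 102 in Ovol2-deficient libraries (log2 fold change 0.23, SE 0.11, adjusted p = 0.352). Its values did not overlap, but control 1 came close to the lower deficient library. Nid2 was near 0 and Postn, or periostin, averaged below 1 FPKM. Of the 5, 3 were tested and 0 passed in limma, with 2 at an unadjusted p under 0.05.

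**Figure D3:**
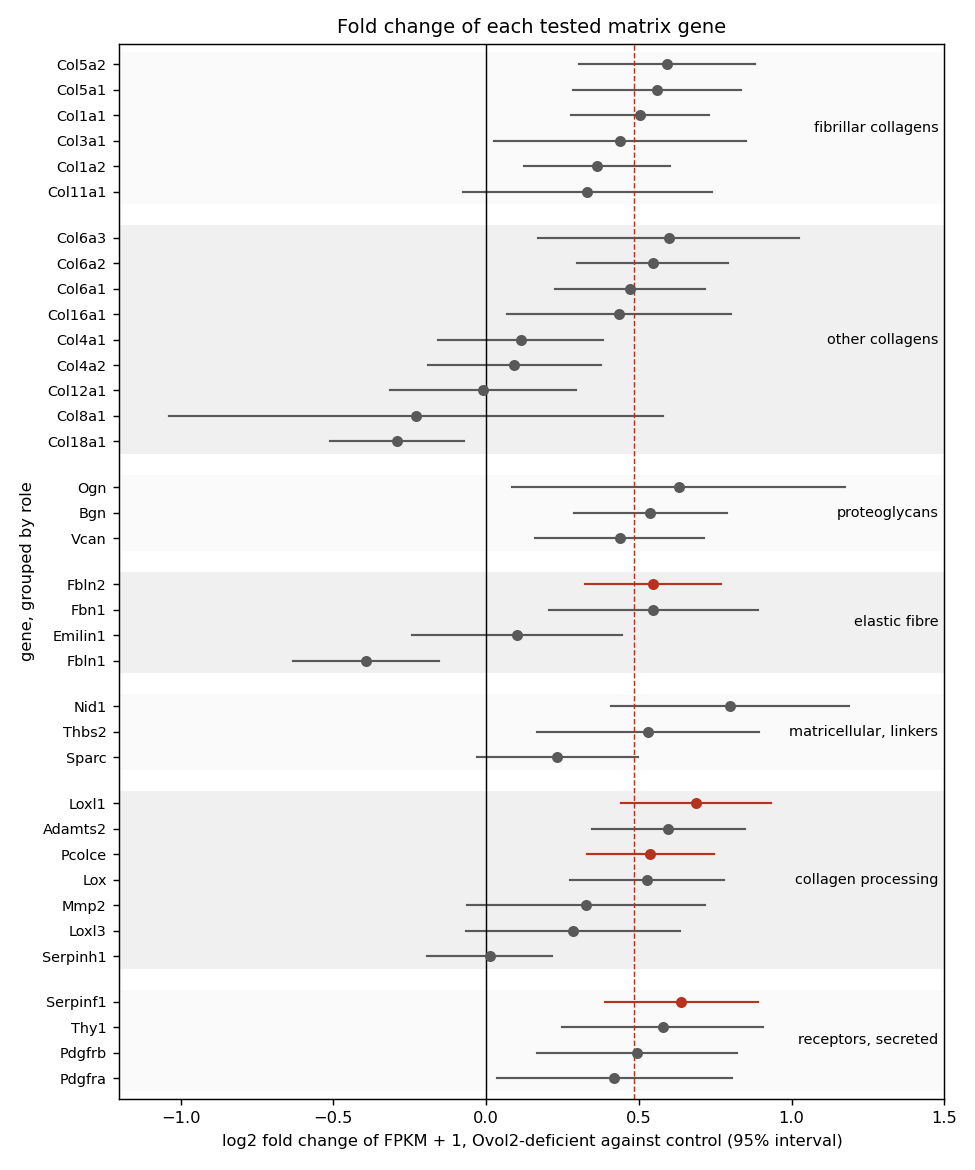
Log2 fold change on the log2(FPKM + 1) scale with its 95% interval from limma (horizontal) for each of the 36 tested matrix genes (vertical, grouped by role). Red marks the 4 called genes, the solid line is 0 and the dashed line the median of 0.48, and the intervals of Col4a1, Col4a2, Col12a1, Col18a1, Emilin1, Fbln1 and Serpinh1 lie wholly below that median.

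Within the set, most tested genes for enzymes that act on secreted collagen stood higher in the deficient libraries, while Serpinh1, for a collagen chaperone, did not. Loxl1, a lysyl oxidase that cross-links elastin and collagen, stood at 12.9 and 14.7 FPKM in controls, against 22.2 and 23.5 in Ovol2-deficient libraries. Its means were 13.8 ± 1.28 for controls and 22.8 ± 0.898 for deficient libraries (SD, n = 2 per group) and it rose (log2 fold change 0.69, SE 0.10, adjusted p = 0.0412 in limma). Pcolce, which enhances removal of the C-propeptide of procollagen, stood at 44.5 and 46.9 FPKM in controls, against 65.5 and 68.0 in Ovol2-deficient libraries. Means were 45.7 ± 1.66 for controls and 66.8 ± 1.8 for deficient libraries (SD, n = 2 per group), and it rose (log2 fold change 0.54, SE 0.088, adjusted p = 0.0468 in limma). Adamts2, the proteinase that removes the N-propeptide, stood at 9.49 and 10.7 FPKM in controls, against 15.3 and 16.3 in Ovol2-deficient libraries and narrowly did not pass (log2 fold change 0.60, SE 0.11, adjusted p = 0.0515). Lox, the founding lysyl oxidase, was among the most abundant genes, at 134 and 120.0 FPKM in controls, against 172 and 195 in Ovol2-deficient libraries (log2 fold change 0.53, SE 0.11, adjusted p = 0.0640). None of these 4 overlapped between the groups.

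Loxl3, another lysyl oxidase, was at 2.17 and 2.22 FPKM in controls, against 2.54 and 3.27 in Ovol2-deficient libraries (log2 fold change 0.28, SE 0.15, adjusted p = 0.390). Mmp2, which degrades type IV collagen and gelatin, was at 17.7 and 20.3 FPKM in controls, against 20.1 and 28.7 in Ovol2-deficient libraries (log2 fold change 0.33, SE 0.17, adjusted p = 0.377), with Ovol2-deficient library 1 within the range of the controls. Serpinh1, the collagen chaperone Hsp47 of the endoplasmic reticulum, did not separate, at 116 and 121 FPKM in controls, against 119.6 and 118 in Ovol2-deficient libraries (log2 fold change 0.011, 95% interval -0.20 to 0.22). Loxl2 was just below the minimum, at 0.782 and 0.674 FPKM in controls, against 1.03 and 1.08 in Ovol2-deficient libraries, and Fap was 0 in the controls and at most 0.027 in the deficient libraries. In this group 7 of 9 were tested and 2 passed, with a median log2 fold change of 0.53.

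Among fibroblast receptors and other secreted proteins, 4 of 6 were tested and Serpinf1 passed. Serpinf1, which encodes the secreted factor PEDF, stood at 76.4 and 64.6 FPKM in controls, against 111 and 109 in Ovol2-deficient libraries. Its means were 70.5 ± 8.31 for controls and 110.0 ± 1.04 for deficient libraries (SD, n = 2 per group), and it rose (log2 fold change 0.64, SE 0.11, adjusted p = 0.0470 in limma). The controls differed from each other by more than the deficient libraries did. Thy1, a surface protein of fibroblasts, stood at 14.3 and 11.5 FPKM in controls, against 17.8 and 21.7 in Ovol2-deficient libraries (log2 fold change 0.58, SE 0.14, adjusted p = 0.0947). The platelet-derived growth factor receptors were low. Pdgfrb was at 1.64 and 1.96 FPKM in controls, against 2.9 and 2.98 in Ovol2-deficient libraries (log2 fold change 0.49, SE 0.14, adjusted p = 0.131). Pdgfra was at 0.874 and 1.06 FPKM in controls, against 1.43 and 1.83 in Ovol2-deficient libraries (log2 fold change 0.42, SE 0.16, adjusted p = 0.250). None of these overlapped, and Pdgfra averaged under 1 FPKM in the controls. Islr was near 0, and Sfrp2 was listed at 0 in every library.

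In all, 14 of the 50 listed genes were not tested. The 2 nearest below the minimum were Dcn (mean 0.929 FPKM) and Loxl2 (0.891), and the 2 nearest above it were Pdgfra (1.3) and Ogn (1.51). Pdgfra and Ogn would both lie below it on their control means, of 0.965 and 0.949. Of the others not tested, Col5a3, Lum, Eln, Mfap2, Mfap4, Nid2, Fap, Islr and Sfrp2 averaged below 0.3 FPKM, and Fbln5, Postn and Mfap5 lay between 0.428 and 0.645.

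The deficient libraries differed in the size of the shift. Relative to the control mean of each gene, the median deviation of the 36 genes was -0.034 and 0.034 on the log2 scale in controls 1 and 2, and 0.32 and 0.56 in Ovol2-deficient libraries 1 and 2. Library 2 was the higher of the deficient pair for 31 of the 36 genes, and control 2 the higher of the controls for 24. The median log2 fold change was 0.32 without Ovol2-deficient library 2, and 0.42 to 0.56 with any other library left out. Of the 36 genes, 32 lay above the control mean in deficient library 1 and 34 in library 2. The counts in this paragraph were not taken over all genes tested. Whether the difference between the deficient libraries is particular to the matrix genes is therefore not known.

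**Figure D4:**
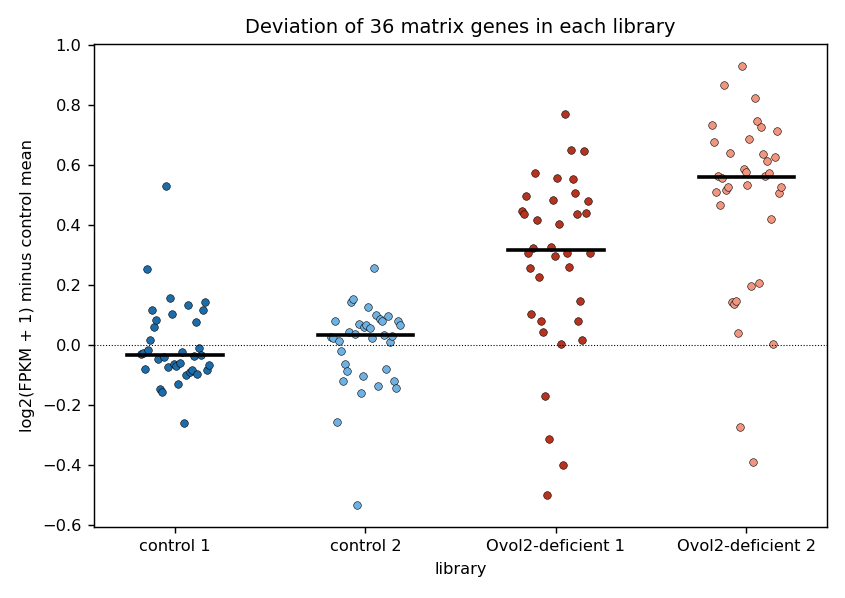
Deviation of log2(FPKM + 1) from the control mean of the same gene (vertical) for the 36 tested matrix genes (points) in each of the 4 libraries (horizontal), with black bars at the median. The control medians are -0.034 and 0.034, and the deficient ones 0.32 and 0.56.

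The authors' deposited table, a comparison of the same groups, called 17 of these 36 genes higher and 0 lower at its adjusted p under 0.05, where 2.33% of its 11582 rows with an adjusted p were called higher and 2.10% lower. All 4 genes called in limma were among those 17 in the authors' deposited table. In the authors' deposited table the smallest adjusted p of the set was that of Serpinf1 (5.92e-05). There the fibrillar chains Col1a1 (0.00114), Col5a1 (0.000445) and Col5a2 (0.000602) passed, while Col1a2 (0.0517) and Col3a1 (0.158) did not in the authors' deposited table. Nid1 (0.000481), Bgn (0.000335) and Lox (0.000906) also passed in the authors' deposited table. The median log2 fold change over the 36 genes was 0.45 in the authors' deposited table. Fbln1 (0.139) and Col18a1 (0.0907) did not pass in the authors' deposited table.

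Other genes of matrix synthesis, taken from lists kept apart from the 50, had lower medians. Of 22 tested genes for collagen-modifying and secretory enzymes (27 of 32 listed names were in the expression table), 1 was called higher, 0 lower and 21 did not pass, with a median log2 fold change of 0.046 (unadjusted p under 0.05 for 6 higher and 2 lower in limma). The gene that rose was Loxl4, another lysyl oxidase, at 5.24 and 6.0 FPKM in controls, against 9.12 and 9.91 in Ovol2-deficient libraries (log2 fold change 0.67, SE 0.12, adjusted p = 0.0491). P4hb, a subunit of prolyl 4-hydroxylase and the most abundant of the list, was at 310.2 and 292 FPKM in controls, against 294 and 282 in Ovol2-deficient libraries (log2 fold change -0.066, SE 0.095, adjusted p = 0.792). Ppib, a prolyl isomerase that acts on procollagen, was at 101 and 88.3 FPKM in controls, against 91.6 and 86.4 in Ovol2-deficient libraries (log2 fold change -0.089, SE 0.10, adjusted p = 0.729). The deficient values of P4hb and Ppib overlapped the controls, as those of Serpinh1 did. Of the 22, 8 had both deficient values above both controls, 4 below and 10 overlapped. Over all genes tested 24.1% lay above and 24.0% below. Those above included Fkbp14, P4ha2, Plod2 and Fkbp10 (log2 fold changes 0.70, 0.42, 0.37 and 0.30), and those below included Bmp1 (-0.25).

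Of 25 other collagen chains 7 were tested and 0 passed in limma, with 2 higher and 2 lower at an unadjusted p under 0.05 and a median of 0.22. Their largest values belonged to Col17a1, the hemidesmosomal collagen of keratinocytes, at 367 and 345 FPKM in controls, against 266 and 270.3 in Ovol2-deficient libraries (log2 fold change -0.41, SE 0.095, adjusted p = 0.0848). Col7a1, which forms the anchoring fibrils, was at 21.4 and 18.4 FPKM in controls, against 7.34 and 13.7 in Ovol2-deficient libraries (log2 fold change -0.92, SE 0.24, adjusted p = 0.113). In both, all deficient values were below all controls. Of 12 tested genes of the epidermal basement membrane, a list that shares Col17a1 and Col7a1 with the last, 0 were called higher, 2 lower and 10 did not pass, with 0 higher and 7 lower at an unadjusted p under 0.05 and a median log2 fold change of -0.40. Lamb3, a laminin chain of the epidermal basement membrane, fell, with 72.2 and 75.0 FPKM in controls, against 45.2 and 46.1 in Ovol2-deficient libraries (log2 fold change -0.68, SE 0.086, adjusted p = 0.0353 in limma). Of 14 tested genes of TGF-beta signalling and its matrix response 0 passed in limma, with 2 higher and 3 lower at an unadjusted p under 0.05 and a median of 0.029. Ctgf, a matricellular target of that pathway, was at 214 and 191 FPKM in controls, against 159 and 151 in Ovol2-deficient libraries (log2 fold change -0.38, SE 0.10, adjusted p = 0.111).

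Genes of fibroblasts outside the matrix stood higher as well. Of 20 tested on a list of 30, 2 were called higher, 0 lower and 18 did not pass, and the median log2 fold change was 0.48 with quartiles of 0.34 and 0.53, next to 0.48, 0.27 and 0.55 for the 36 matrix genes. Fgf7, the keratinocyte growth factor that mesenchymal cells secrete, rose, at 20.8 and 22.0 FPKM in controls, against 36.8 and 38.9 in Ovol2-deficient libraries (log2 fold change 0.80, SE 0.092, adjusted p = 0.0353). Vim, the intermediate filament vimentin, rose too, at 159 and 150.1 FPKM in controls, against 237 and 222 in Ovol2-deficient libraries (log2 fold change 0.56, SE 0.094, adjusted p = 0.0473). The most abundant genes of the list were S100a4, a calcium-binding protein, at 267 and 236 FPKM in controls, against 345 and 360.1 in Ovol2-deficient libraries (log2 fold change 0.49, SE 0.10, adjusted p = 0.0703), and Lgals1. That gene, for the lectin galectin-1, was at 174 and 164 FPKM in controls, against 236 and 225 in Ovol2-deficient libraries (log2 fold change 0.45, SE 0.093, adjusted p = 0.0676). Neither overlapped between the groups and neither passed. The summed FPKM of the list was 797 and 766 in controls, against 1066 and 1085 in deficient libraries, and Meox2, Tcf21 and Tbx5 were listed at 0 in all 4. The part of these fibroblast genes in the matrix result was not tested.

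Of 20 keratinocyte markers 0 passed in limma, with 0 higher and 4 lower at an unadjusted p under 0.05, a median of -0.18 and sums of 9257 and 8494 FPKM in the controls against 8601 and 7284 in the deficient libraries. All 6 tested melanocyte markers, of 11 listed, had both deficient values above both controls, as did 24.1% of all genes tested. Their median was 0.37, with 0 called and 4 at an unadjusted p under 0.05 in limma. The list summed to 63.5 and 69.3 FPKM in controls against 92.6 and 85.8 in deficient libraries. Of the markers below 1 FPKM, Sox10 and Kit also lay above both controls, while Ednrb, Slc45a2 and Gpr143 overlapped. Of 4 tested smooth muscle and pericyte markers 0 passed (median 0.30, 2 at an unadjusted p under 0.05 in limma), and their sums were 130.6 and 131.1 against 131.0 and 136.6 FPKM. Of these, 3 had both deficient values above both controls, namely Notch3, Tagln and Acta2 (log2 fold changes 0.50, 0.41 and 0.19). Mcam, the most abundant, had both below (-0.15). Over all genes tested 24.1% lay above and 24.0% below. Kcnj8, a pericyte marker that was not tested, was listed at 0 in all 4 libraries. Of the 10 endothelial and 11 immune markers in the expression table, 2 and 4 were tested and 0 passed in limma, with 0 at an unadjusted p under 0.05. The most abundant immune marker was Cd68, a lysosomal protein of macrophages, at 12.3 and 10.3 FPKM in controls, against 11.3 and 10.3 in Ovol2-deficient libraries. Lyz2, or lysozyme, was at 5.59 and 12.3 FPKM in controls, against 9.88 and 7.48 in Ovol2-deficient libraries. The endothelial Pecam1 was at 2.37 and 1.89 FPKM in controls, against 1.5 and 1.6 in Ovol2-deficient libraries, above 1 FPKM in every library, and its deficient values lay below both controls. Kdr, a receptor for vascular endothelial growth factor, was at 0.904 and 1.83 FPKM in controls, against 2.77 and 1.63 in Ovol2-deficient libraries, and its groups overlapped. Cdh5 and Cldn5, which define endothelium, and Cd207, the Langerhans cell marker, were listed at 0 in all 4 libraries, and Ptprc, the pan-leukocyte marker, was at most 0.066 FPKM. The summed endothelial and immune lists ran from 4.62 to 5.57 and from 20.6 to 28.2 FPKM and overlapped between the groups. Of skeletal muscle markers 1 of 9 was tested, Mylpf, and it did not pass (log2 fold change -0.074). The part of the keratinocyte, melanocyte and smooth muscle and pericyte markers in the matrix result was not tested.

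**Figure D5:**
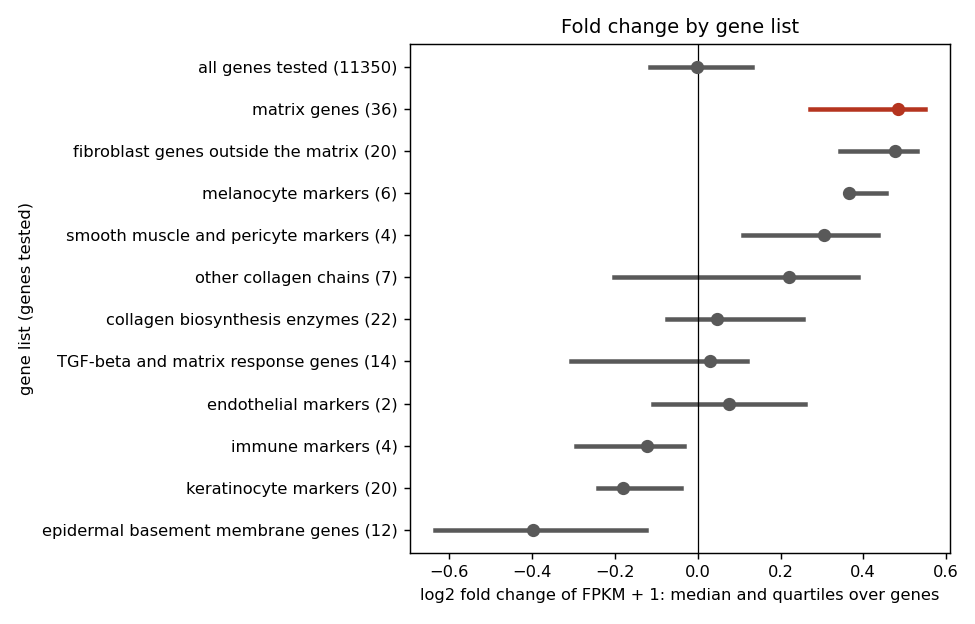
Median (points) and quartiles (bars) of the log2 fold change on the log2(FPKM + 1) scale, over the tested genes of each list, whose number is in brackets. The matrix genes and the fibroblast genes outside the matrix both have medians of 0.48, all genes tested -0.0014, keratinocyte markers -0.18 and epidermal basement membrane genes -0.40.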

How the data were processed

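RNA-seq of 2 control and 2 Ovol2-deficient keratinocyte cultures was used. Per the labels' protocols, cDNA was amplified at full length and tagmented with a Nextera kit. TopHat, HTSeq and mm10 are named in the submitters' processing notes, with no versions. No source used here gives the annotation or the tool that made the values. FPKM per library were deposited by the authors, without counts, so total depth was not available and no counting interval is given. Their second deposited table holds, per the file headers, p-values before and after adjustment, a log2 fold change with its SE, a score for the test and a mean normalized signal. Control columns match the sample titles. The deficient columns are named as mutants, so they were assigned to the group only and carry the table's own numbers.

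From the expression values 1 repeated header and 27 rows with date-like symbols were removed, and rows sharing a symbol were summed (each listed matrix gene had 1 row). Genes with a mean of at least 1 FPKM entered limma 3.58.1 (R 4.3.3) as log2(FPKM + 1), with group as the only term (variance trend, two-sided, Benjamini-Hochberg over 11350 genes, threshold 0.05). This is the branch the design gave for normalized values, and the count test it gave for counts did not apply. Fold changes on this scale understate changes of low genes. Between any 2 libraries 5 to 13 values were identical, so none was a copy. With 2 libraries per group no permutation can give a small p, so p-values rest on the model. Every listed gene is accounted for. Fuller values went to called genes and to the highest, lowest and most abundant, and from the other lists to called and abundant genes, of which 1 is not reported here. The genes and lists were chosen with earlier results of these data known, so no test over a list is given. Sequences are from RefSeq on GRCm38.p6, with windows for 33 of the 50 genes, and coordinates from GENCODE M21, which held all 50. The alternatives covered the pseudocount, the filter, normalization, the variance model, the library number as a block, rows sharing a symbol, and leaving out each library.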

Additional observations from a re-analysis of the deposited data

How the results depend on the processing

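The 14 alternatives gave 497 log2 fold changes for the 36 tested matrix genes, of which 424 kept their direction and side of the threshold, 28 lost a call, 37 gained it and 8 changed sign. The sign changes were all of genes near 0 or with unlike controls: without control 1, Col4a1 (-0.031), Col4a2 (-0.062), Col8a1 (0.30) and Serpinh1 (-0.020); without Ovol2-deficient library 1, Col8a1 (0.042) and Col12a1 (0.15); without control 2, Col12a1 (0.027); and under quantile normalization, Emilin1 (-0.0036). With 1 library left out Col4a1 ran from -0.031 to 0.26, Col4a2 from -0.062 to 0.25, Col8a1 from -0.76 to 0.30, Col12a1 from -0.17 to 0.15 and Serpinh1 from -0.020 to 0.042. The number of matrix genes called higher, 4 with all libraries, was 0 without the filter on low values, under quantile normalization and without the variance trend, 1 with median-ratio scaling, 12 with a minimum mean of 5 FPKM (29 of the genes left) and 14 with robust empirical Bayes. Over all genes tested the count moved from 153 to 3, 5, 6, 82, 267 and 461 in that order. With 1 library left out, 0 to 7 matrix genes and 10 to 397 of all genes were called, and the median log2 fold change of the matrix genes was 0.32 to 0.56. The cause of these moves was not tested. Only the 4 genes called with all libraries could lose a call, so most of the 424 unchanged values are of genes not called. No matrix gene was called lower under any alternative that kept all 4 libraries. In these, 27 had both deficient values above both controls, except 22 of the 29 left at the higher minimum. With 1 library left out, the deficient values that remained lay above the controls that remained for 27 to 32 genes, a weaker condition. The share over all genes tested was not taken for that condition or for the higher minimum. Those counts therefore say nothing particular about the matrix genes.

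With the library number as a block, 15 matrix genes and 518 of all genes were called. The numbers are not stated to mark a shared litter or day, and with 2 pairs they cannot be shown to pair the libraries: across all genes tested the difference of library 2 from library 1 correlated at 0.22 between the groups, so the blocked values are given only here. Depth is not in the files used here, so how far it limits genes near 1 FPKM is not known.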
